A study of Mus musculus with 30 samples.

Results

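The genes described here are the 10 mouse tubulin isotypes Tuba1a, Tuba1b, Tuba1c, Tubb2a, Tubb2b, Tubb3, Tubb4a, Tubb4b, Tubb5 and Tubb6, which are 3 α-tubulin genes and 7 β-tubulin genes. They were chosen by symbol, with earlier results of these data known, and no measured value enters the rule. All 10 were found among the 14997 genes of the captured-cell table and among the 26005 genes of the sphere table, and all 10 were listed at every age, so no filter on low values removed a member. Tubb6 owed its listing at P70 to replicate 3. Each isotype was followed as a level and as its share of the α or β total in the same library. The totals are sums over these genes alone.

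Microtubules are hollow polymers of α- and β-tubulin pairs, and each protein is made from several genes. The carboxy-terminal tail, encoded by the last stretch of the coding sequence, is a known site of differences between isotypes. Enzymes add and remove glutamate, glycine, tyrosine and acetyl groups on tubulin, and the proteins that bind the polymer read both the isotype and these marks. In the developing midbrain the same proteins build mitotic spindles in dividing progenitors, the axons of young neurons and, later, the axonemes of the motile cilia that ependymal cells carry along the ventricle.

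Polyadenylated RNA had been profiled in 30 libraries. Laser capture took midbrain floor plate at embryonic day 11 (E11, 4 libraries), E13 (5 libraries), E18 (5 libraries) and postnatal day 70 (P70, 6 libraries), all from mice of the genotype Lmx1aCreERT2; R26TRAPC. Here Cre recombinase is fused to a tamoxifen-responsive receptor and expressed from the floor plate gene Lmx1a, so the labelled cells are those that expressed Lmx1a when tamoxifen was given, and their descendants. The other 10 libraries came from adult cells grown in vitro as spheres, 5 named MB and 5 named FB. The labels do not spell out these names, while the design text speaks of ependymal spheres from the aqueduct of the midbrain and of neurospheres from the lateral ventricle. The labels leave out whether the libraries within a group are separate animals or cultures, so p-values measure the spread between libraries, which may in part be technical.

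The isotypes differ in how much of their sequence they can call their own. The last 75 coding bases, stop codon included, are printed 5′ to 3′ for the β isotypes that the results turn on, because these bases encode the tail. They were read from the GENCODE M21 transcripts (GRCm38), and capitals mark bases that lie in no run of 12 bases shared with the coding sequence of another of the 10 genes.
Tubb2a: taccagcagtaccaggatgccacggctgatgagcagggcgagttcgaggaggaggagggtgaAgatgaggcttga
Tubb2b: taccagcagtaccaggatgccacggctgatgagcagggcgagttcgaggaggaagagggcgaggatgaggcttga
Tubb3: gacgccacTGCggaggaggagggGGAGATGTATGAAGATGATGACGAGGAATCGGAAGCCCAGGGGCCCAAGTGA
Tubb4b: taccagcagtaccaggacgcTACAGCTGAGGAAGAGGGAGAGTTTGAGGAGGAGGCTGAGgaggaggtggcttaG
Tubb5: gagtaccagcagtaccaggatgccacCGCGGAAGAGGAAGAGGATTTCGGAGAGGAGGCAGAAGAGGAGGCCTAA
The ends of Tubb2a and Tubb2b held 1 and 0 unshared bases, and these genes were 96.5% identical over 1338 bases. In Tubb4b 41 of the 75 bases were unshared, in Tubb5 49 and in Tubb3 55. Unshared bases made up 54.7%, 65.3% and 73.3% of these ends, against 40.8%, 39.9% and 24.7% of the rest of the coding sequence. The end had the smaller part in Tubb2a (1.33% and 7.44%), in Tubb2b (0% and 11.9%) and in Tubb4a, not printed (24.0% and 28.5%). Tubb2a and Tubb4b, whose coding sequences have the same length, were 83.9% identical before this stretch and 77.3% within it. Among the α genes the whole coding sequences of Tuba1a and Tuba1b were 98.3% identical over 1356 bases.

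By GRCm38 coordinates the α genes lie together on chromosome 15, Tuba1b at chr15:98931425-98934565 on the minus strand, Tuba1a at chr15:98949837-98953703 on the minus strand and Tuba1c at chr15:99029891-99038110 on the plus strand. Tubb2a (chr13:34074274-34078007, minus strand) and Tubb2b (chr13:34126748-34130466, minus strand) are likewise neighbours. The other β genes are Tubb3 at chr8:123411424-123422015 (plus), Tubb4a at chr17:57080066-57087782 (minus), Tubb4b at chr2:25222160-25224702 (minus), Tubb5 at chr17:35833921-35838306 (minus) and Tubb6 at chr18:67390717-67402749 (plus). The printed coding end of Tubb4b spans chr2:25222308-25222382, that of Tubb5 chr17:35834982-35835056 and that of Tubb3 chr8:123421608-123421682.

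Captured levels are the deposited values, called units here, which behave like reads scaled to gene length and library size (RPKM). Behind the values of all 10 isotypes whole reads could be recovered, and these give the gene length that the values imply. That length was shorter for the isotypes whose transcripts share much sequence with other genes. Over 9966 genes it ran from 44.8% to 147% of the exonic length (10th to 90th percentile). Tuba1b (13.6%) and Tuba1a (40.6%) lay below this range. Tuba1c (51.3%), Tubb4b (54.7%), Tubb2b (58.6%) and Tubb2a (74.3%) lay within it. For Tuba1b 83.1% of 50-base windows along the transcript occurred in another gene's transcripts, and the deposited values corresponded to a length of 255 bases out of a transcript of 1743. For Tuba1a 75.5% of windows were shared and the implied length was 732 bases of 1803. In Tubb4b 55.5% of windows were shared, mostly with the pseudogenes Tubb4b-ps1 and Tubb4b-ps2, and the implied length was 1143 bases of 1598. Tubb3, Tubb4a, Tubb5 and Tubb6 shared at most 0.184% of windows, and their implied lengths were 107% to 149.6% of the exonic length. Levels of Tuba1a, Tuba1b, Tuba1c, Tubb2a, Tubb2b and Tubb4b are therefore uncertain where reads of near-identical copies could have been divided among them. A constant length cancels between ages but not between genes.

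The reads recovered per captured library ranged from 3641624 to 4161700 at E11, from 3305896 to 4853691 at E13, from 3066566 to 3885810 at E18, and from 1348052 to 3326149 at P70. They cover 70.1% of genes and so are less than the full depth. The sphere libraries held 6327198 to 8422358 counts in MB and 6676389 to 9291311 in FB. Of 12 floor plate markers 12, 11, 11 and 10 were listed at E11, E13, E18 and P70. They summed to 722 to 869, 871 to 1032, 506 to 692 and 149 to 227 units at these ages. Lmx1a averaged 70.6, 60.3, 22.6 and 4.89 units, and Shh was not listed at P70. Single markers took different courses. Ntn1 averaged 84.0, 105, 317 and 24.2 units, En1 16.1, 106, 40.4 and 21.2, and Msx1 3.29, 20.8, 19.3 and 44.0. Markers of red blood cells, of which 6, 5, 2 and 4 of 10 were listed, summed to 15153 to 39857 units at E11, then 4728 to 16624 at E13, 1.62 to 6.85 at E18 and finally 7.12 to 446 at P70. In bulk samples fewer cells of a type and less RNA per cell cannot be told apart.

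The β-tubulin pool was made of different genes at each end of the time course. Tubb5, the β isotype of most dividing cells, supplied 70.6% ± 4.77 of the β total in the 4 libraries of E11 (mean ± SD), 46.0% ± 4.38 in the 5 of E13, 27.8% ± 8.52 in the 5 of E18 and 9.39% ± 1.77 in the 6 of P70. Tubb4b, an isotype known from the axonemes of motile cilia, supplied 8.86% ± 1.53, 5.18% ± 2.03, 20.5% ± 6.62 and 69.7% ± 6.10 at the same ages. Between these ages Tubb3, a marker of neurons, and Tubb2a had their highest shares, Tubb3 at E13 with 22.5% ± 3.66 and Tubb2a at E18 with 30.8% ± 5.03. The α pool was divided almost wholly between Tuba1a and Tuba1b, and Tuba1a supplied 54.2%, 86.0%, 86.6% and 79.7% of it at E11, E13, E18 and P70. The totals behind these shares averaged 7587 ± 486, 11367 ± 1913, 9492 ± 2805 and 6392 ± 1506 units for α-tubulin at the 4 ages, and 3503 ± 162, 4338 ± 744, 3715 ± 649.6 and 2073 ± 262 units for β-tubulin. The α and β totals cannot be compared with each other, since they rest on different implied lengths. These were 40.6% of the exonic length for Tuba1a and 13.6% for Tuba1b, against 118% for Tubb5. In E11 replicate 1 the recovered reads numbered 7235 for Tuba1a and 30476 for Tubb5.

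**Figure D1:**
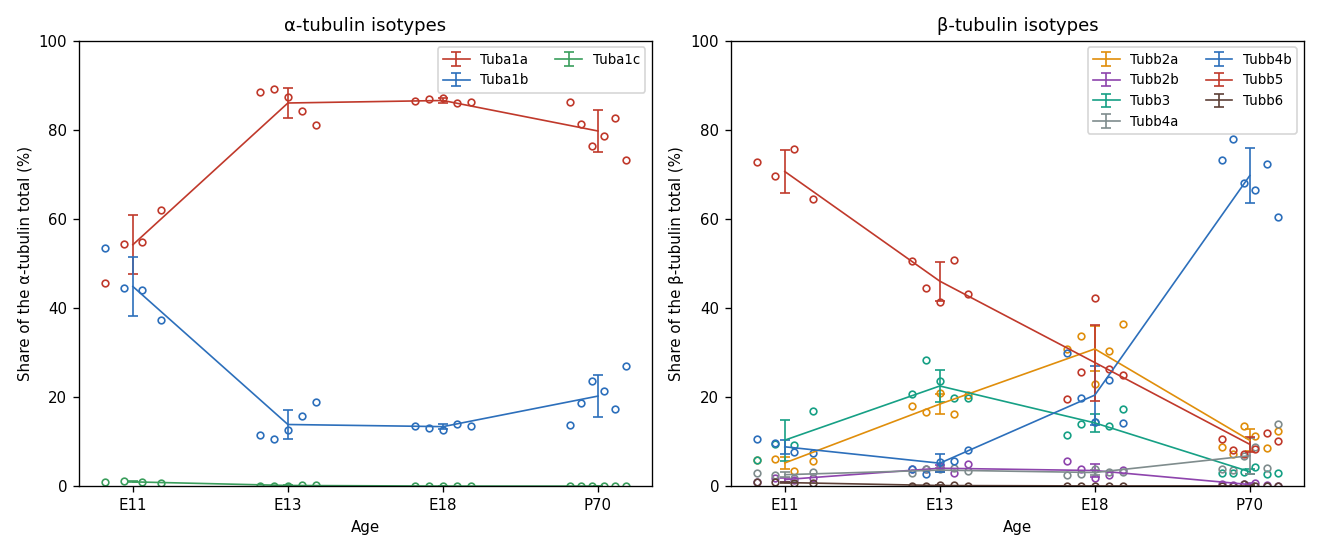
Share of each isotype in the α-tubulin total (left) and the β-tubulin total (right), in percent, against age. Each circle is 1 library, lines join the means and bars are SD over 4 to 6 libraries. Tubb5 averages 70.6% of the β total at E11 and Tubb4b 69.7% at P70, and Tuba1a averages 54.2% of the α total at E11 and 86.0% at E13.

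Between E11 and E13 the shares of all 10 isotypes passed the test. Shares were compared by an exact two-sided permutation test over libraries, with Benjamini-Hochberg adjustment over 40 share comparisons. With 5 libraries against 4 the smallest p is 0.00794. Tuba1a made up 31.8 percentage points more of the α total at E13 than at E11, and Tuba1b 31.0 points less. Among β isotypes the share of Tubb2a averaged 18.4% at E13 against 5.24% at E11, and that of Tubb3 22.5% against 10.3%. The Tubb5 share was 46.0% at E13 and 70.6% at E11. These shares, and those of Tuba1c, Tubb2b and Tubb6, did not overlap between the ages (exact p = 0.00794 and adjusted p = 0.0157 for each). Shares of 1 total are not independent, since a gain of any isotype lowers the others.

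The shares of Tubb4a and Tubb4b overlapped between the ages. Tubb4a held 3.63% of the β total at E13 and 2.60% at E11 (exact p = 0.0238, adjusted p = 0.0381), a call lost on leaving out E13 replicate 2, 3, 4 or 5 or E11 replicate 1, 2 or 3, with a difference of 0.769 to 1.16 points in those 7 cases. Tubb4b held 5.18% at E13 and 8.86% at E11 (exact p = 0.0317, adjusted p = 0.0488). This call was lost on leaving out any E11 library or E13 replicate 1, 2, 3 or 4, with a difference between -4.15 and -3.08 points. With 1 library fewer the smallest p that the design allows is larger.

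Between E13 and E18, 5 shares passed. Tubb4b supplied 20.5% of the β total at E18 against 5.18% at E13, and Tubb2a 30.8% against 18.4%. Tubb3 supplied 14.2% at E18 against 22.5% at E13, and Tuba1c 0.0417% of the α total against 0.178%. These 4 shares did not overlap between the ages (exact p = 0.00794, the smallest the design allows, adjusted p = 0.0157). Tubb5 supplied 27.8% at E18 and 46.0% at E13 (exact p = 0.0159, adjusted p = 0.0265), and its range at E18 reached 42.2% in replicate 3, while the other 4 libraries lay between 19.5% and 26.4%. The shares of Tuba1a (86.6% at E18, 86.0% at E13) and Tuba1b (13.4% and 13.8%) differed by less than the spread at E13.

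Between E18 and P70, 7 shares passed, and the widest difference was that of Tubb4b, which stood 49.3 points higher at P70. The shares of Tubb2a (10.3% at P70, 30.8% at E18), Tubb2b (0.382% and 3.53%), Tubb3 (3.26% and 14.2%) and Tubb5 (9.39% and 27.8%) were lower at P70. These 5 did not overlap between the ages (exact p = 0.00216, the smallest that 6 against 5 libraries allow, adjusted p = 0.0157). Tuba1b supplied 20.2% of the α total at P70 and 13.4% at E18, and Tuba1a 79.7% and 86.6% (exact p = 0.00866 and adjusted p = 0.0157 for each). Tubb4a ranged from 3.55% to 14% at P70 and from 2.51% to 3.85% at E18, and its mean difference of 3.76 points did not pass (exact p = 0.0455, adjusted p = 0.0673). It passed on leaving out any 1 P70 library, with a difference of 2.34 (without replicate 6) to 4.42 points and adjusted p between 0.0151 and 0.0254. It did not pass on leaving out any 1 E18 library, and over 14 alternatives adjusted p lay between 0.0151 and 0.0889.

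The shares depend on the lengths used. When recovered reads were divided by the full exonic length, an alternative chosen after the data had been seen, Tuba1b supplied 21.5% ± 4.56 of the α total at E11, 5.12% ± 1.38 at E13, 4.91% ± 0.216 at E18, then 7.88% ± 2.11 at P70. On the same scale Tubb4b supplied 4.40%, 2.68%, 12.5% and 53.8% of the β total at E11, E13, E18 and P70, and Tubb5 75.4%, 50.8%, 35.5% and 15.5%. The count of shares that passed was 9, 5 and 8 for the 3 intervals, against 10, 5 and 7 with the deposited values. Tubb4b lost its call for E13 against E11 and Tubb4a gained one for P70 against E18.

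On the deposited scale, which depends on the lengths used, Tuba1a had the highest mean of the 10 genes at every age, although in E11 replicate 1 Tuba1b (3731 units) stood above it. Tuba1a, the main α-tubulin of young postmitotic neurons, stood at 3183, 4118, 4182 and 5062 units at E11. At E13 it stood at 10721, 12584, 9655, 8909 and 7241 units, and at E18 at 7771, 10038, 4533, 8003 and 10719. At P70 the lowest, median and highest of 6 libraries were 3234, 5089 and 6906 units. The E13 libraries all lay above the E11 libraries, whereas E18 overlapped every other age.

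Tuba1a was 1.24 log2 units higher at E13 than at E11 (SE 0.24, adjusted p = 0.000892 by limma on log2(value + 1) over all genes, the test used for all captured levels). A gene was called when its adjusted p fell below 0.05. The change was -0.29 for E18 against E13 (SE 0.23, adjusted p = 0.309) and -0.67 for P70 against E18 (SE 0.22, adjusted p = 0.0188). The last call was lost in 5 of 19 alternatives, among them leaving out E18 replicate 2 (-0.58, adjusted p = 0.0566) or E18 replicate 5 (-0.55, adjusted p = 0.0644). Over all 19 its adjusted p lay between 0.00189 and 0.0760. Radial glia markers, 9, 10, 10 and 9 of 10 listed, summed to 1893 to 1935, 7319 to 14398, 4235 to 5169 and 1075 to 1579 units at E11, E13, E18 and P70. They were higher at E13 than at E11 and lower at P70 than at E18, as Tuba1a was. Between E13 and E18 their sum fell without overlap, while the change of Tuba1a did not pass. The early neuron markers given below were likewise higher at E13 than at E11 and lower at P70 than at E18. The part of either list in the change of Tuba1a was not tested.

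Tuba1b, an α-tubulin of most cell types, was at 3731, 3370.1, 3354 and 3048 units at E11. It was at 1393, 1504, 1392, 1659.6 and 1679 units at E13, and at 1219, 1498, 660.0, 1307 and 1693 at E18. At P70 it lay between 1099 and 1403 units with a median of 1214. Every E11 library was above every later library, and the 3 later ages overlapped. Tuba1b was lower at E13 than at E11 by a log2 change of -1.15 (SE 0.19, adjusted p = 0.000139), and missed the threshold for E18 against E13 (-0.32, adjusted p = 0.138, or -0.44 with adjusted p = 0.0442 without E18 replicate 5, range over 18 alternatives 0.0442 to 0.513) and at the next interval, P70 against E18 (0.02, SE 0.17, adjusted p = 0.939).

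Tuba1c, an α-tubulin gene whose RNA is low in brain, fell at both embryonic intervals. Its levels were 65.4 to 84.1 units at E11, then 14.7 to 26.6 at E13, 2.04 to 4.86 at E18 and finally 0.531 to 3.64 at P70. The embryonic ages did not overlap. The log2 change was -1.92 for E13 against E11 (SE 0.30, adjusted p = 0.000102) and -2.20 for E18 against E13 (SE 0.29, adjusted p = 1.71e-06). For P70 against E18 it was -0.66 (SE 0.27, adjusted p = 0.0586), and it passed with a pseudocount of 0.1 and without E18 replicate 1 (-0.79), P70 replicate 1 (-0.81) or P70 replicate 4 (-0.78). Over 17 alternatives adjusted p lay between 0.0197 and 0.174.

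Among the β genes, Tubb5 stood at 2508, 2359.6, 2833 and 2214 units at E11 and at 2362, 2408, 1761, 1876 and 1564 at E13. At E18 it stood at 555, 1036, 1798, 846 and 1059.7 units, and at P70 between 137 and 237 with a median of 193. The E11 and E13 libraries overlapped, 1 E18 library reached into the E13 range, and the P70 libraries lay below all others. The change for E13 against E11 did not pass (-0.33, SE 0.24, adjusted p = 0.364). Over 17 alternatives it lay between -0.401 and -0.246, with adjusted p between 0.0951 and 0.578. Tubb2a, Tubb2b and Tubb3 were called higher at E13. The part of each isotype in the lower Tubb5 share at E13 was not tested. Tubb5 fell between E13 and E18 by a log2 change of -1.0 (SE 0.22, adjusted p = 0.000875) and between E18 and P70 by -2.36 (SE 0.21, adjusted p = 2.71e-08).

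Tubb6, a β isotype of low level in brain, was at 34.7, 29.3, 29.8 and 23.4 units at E11. It was at 2.05, 3.99, 8.29, 13.2 and 5.65 units at E13 and at 3.06, 3.29, 1.04, 3.52 and 1.90 at E18. At P70 it was listed at 0 in 4 libraries, at 0.311 in replicate 2 and at 10.5 in replicate 3. Its P70 mean of 1.80 units lay above the listing limit of 1 unit only through replicate 3, so its comparison with E18 exists through that library. Tubb6 was lower at E13 than at E11 (log2 change -2.17, SE 0.56, adjusted p = 0.00812), a call that a pseudocount of 0.1 ended (adjusted p = 0.107, range over 17 alternatives 1.40e-05 to 0.107). For E18 against E13 its change of -0.97 (SE 0.53, adjusted p = 0.140) did not pass, but it passed with only these ages in the fit (adjusted p = 0.0446), with a weight per library (-0.86, adjusted p = 0.0315) and with edgeR on recovered reads (-1.30, adjusted p = 0.0335), out of 17 alternatives between 0.0315 and 0.330. Its change for P70 against E18 was -1.12 (SE 0.51, adjusted p = 0.0836) and became -1.70 without P70 replicate 3 (adjusted p = 0.000303). It also passed with a pseudocount of 0.1 (log2 change -3.15, adjusted p = 0.00897) and with a weight per library (-1.52, adjusted p = 0.00376). Over 18 alternatives it lay between -3.15 and -0.30, with adjusted p between 0.000303 and 0.770.

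Cell cycle markers, all 20 of them listed at E11 and E13, 17 at E18, then 12 at P70, summed to 3484 to 3881 units at E11, then 707 to 1706 at E13, 134 to 161 at E18 and finally 74.7 to 113 at P70. Fibroblast and meninges markers, 9, 8, 6 and 3 of 10 listed, summed to 322 to 871, 59.7 to 173, 70 to 122 and 13 to 54.3 units at the 4 ages. Both sums were lower at E13 than at E11 in every library, as were Tuba1b, Tuba1c and Tubb6, while Tubb5 did not pass at that interval. The cell cycle sum was lower again at E18, as were Tuba1c and Tubb5, while Tuba1b and Tubb6 did not pass. The part of these markers in the isotype changes was not tested.

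Tubb3, Tubb2a and Tubb2b had their highest mean levels at E13 or E18. Tubb3, the β-tubulin used as a marker of neurons, was at 203, 319, 348 and 576 units at E11 and at 975, 1541, 1013, 732 and 719.7 at E13. At E18 it was at 331, 564, 619, 434 and 738 units, and at P70 between 51.9 and 88.0 with a median of 66.7. E13 lay above E11 without overlap, and P70 below every other library. Tubb3 rose by 1.5 for E13 against E11 (SE 0.27, adjusted p = 0.000486). It fell by 0.89 for E18 against E13 (SE 0.26, adjusted p = 0.00715) and by 2.94 for P70 against E18 (SE 0.25, adjusted p = 9.02e-09), all in log2 units.

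Tubb2a, an abundant brain β-tubulin, was at 202, 205, 126 and 194 units at E11 and at 839, 901, 896, 600.3 and 741 at E13. At E18 it was at 876, 1366, 977, 970.2 and 1536 units, and at P70 between 123 and 328 with a median of 201. Its E13 libraries lay above all E11 libraries, and its P70 libraries below all E18 libraries. The log2 change was 2.13 for E13 against E11 (SE 0.24, adjusted p = 2.87e-06) and -2.43 for P70 against E18 (SE 0.22, adjusted p = 2.69e-08). The change of 0.51 for E18 against E13 (SE 0.23, adjusted p = 0.0751) did not pass, although the Tubb2a share did, and 3 of 18 alternatives called it (adjusted p 0.0133 to 0.196).

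Tubb2b, whose mutations in humans disturb cortical migration, was at 32.8 to 64.5 units at E11, then 108 to 209.7 at E13, 81.4 to 159 at E18 and finally 2.68 to 14.6 at P70. It was higher at E13 than at E11 (log2 change 1.73, SE 0.39, adjusted p = 0.00304). Between E18 and E13 its change of -0.49 (SE 0.37, adjusted p = 0.293) did not pass. At P70 it stood lower than at E18 by a log2 change of -4.02 (SE 0.36, adjusted p = 1.91e-08), the largest fall among the 10 genes in any of the 4 comparisons. A pseudogene listed as Tubb2a-ps2, which shares sequence with both genes, averaged 1.84, 16.3, 10.4 and 2.62 units at E11, E13, E18 and P70.

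Markers of early neurons, 14, 13, 10 and 7 of 14 listed at the 4 ages, summed to 199 to 628 units at E11, then 754 to 1708 at E13, 383 to 1045 at E18 and finally 86.4 to 143 at P70. Markers of mature neurons, 12, 13, 15 and 16 of 16 listed, summed to 317 to 411, 708 to 1649, 1063 to 2171 and 822 to 1386 units. The early markers were higher at E13 than at E11 and lower at P70 than at E18 without overlap, as Tubb3, Tubb2a and Tubb2b were. Radial glia and floor plate markers took that course without overlap too. The radial glia sums were 1893 to 1935, 7319 to 14398, 4235 to 5169 and 1075 to 1579 units at the 4 ages. The floor plate sums were 722 to 869, 871 to 1032, 506 to 692 and 149 to 227 units. The part of any of these lists in the isotype changes was not tested.

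Tubb4b was the only one of the 10 genes called higher at E18 than at E13, and again at P70 than at E18. It stood at 366, 328, 288 and 256 units at E11 and at 181, 149.9, 229.6, 212 and 295 at E13. At E18 it stood at 852, 802, 619, 762 and 602 units. At P70 it stood at 1471, 1326, 1633, 1337, 1419 and 1422 units. The E18 libraries lay above all E13 libraries and the P70 libraries above all E18 libraries. Tubb4b was higher at E18 than at E13 by a log2 change of 1.79 (SE 0.16, adjusted p = 6.48e-09), and higher at P70 than at E18 by 0.99 (SE 0.15, adjusted p = 2.33e-05).

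For E13 against E11 Tubb4b had a log2 change of -0.56 (SE 0.17, adjusted p = 0.0197). That call was lost on leaving out E11 replicate 1 (-0.47) or 2 (-0.52) or E13 replicate 1 (-0.51) or 2 (-0.44), and adjusted p lay between 0.00210 and 0.0835 over 17 alternatives. Markers of motile cilia and ependymal cells, 8, 8, 17 and 17 of 18 listed, summed to 261 to 336 units at E11, then 559.7 to 859 at E13, 7024 to 10073 at E18 and finally 16446 to 24514 at P70. Astrocyte markers, 9, 10, 12 and 12 of 12 listed, summed to 94.9 to 133, 409 to 681, 4714 to 7085 and 6757 to 8909 units at the 4 ages. By median both lists were higher at each later interval, as Tubb4b was, though the astrocyte sums of E18 and P70 overlapped. Both were also higher at E13 than at E11, where Tubb4b was called lower. Oligodendrocyte markers, 4, 8 and 10 of 12 listed at E13, E18 and P70, rose at the later intervals too, with sums of 11.5 to 19.1, 154 to 211 and 386 to 998 units. The part of these lists in the change of Tubb4b was not tested.

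Tubb4a, in adult brain best known from oligodendrocytes, passed at no interval. It was at 68.1 to 106 units at E11, then 123 to 207 at E13, 71.5 to 164 at E18 and finally 60.4 to 329 at P70, where replicate 6 held the highest value. The log2 changes were 0.79 for E13 against E11 (SE 0.36, adjusted p = 0.125), -0.46 for E18 against E13 (adjusted p = 0.276), then 0.15 between P70 and E18 (adjusted p = 0.752). The first of these had no overlap between the ages and passed in 3 of 17 alternatives (adjusted p 0.00273 to 0.292). Oligodendrocyte markers, of which 10 of 12 were listed at P70 and 8 at E18, summed to 386 to 998 units at P70 and 154 to 211 at E18.

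**Figure D2:**
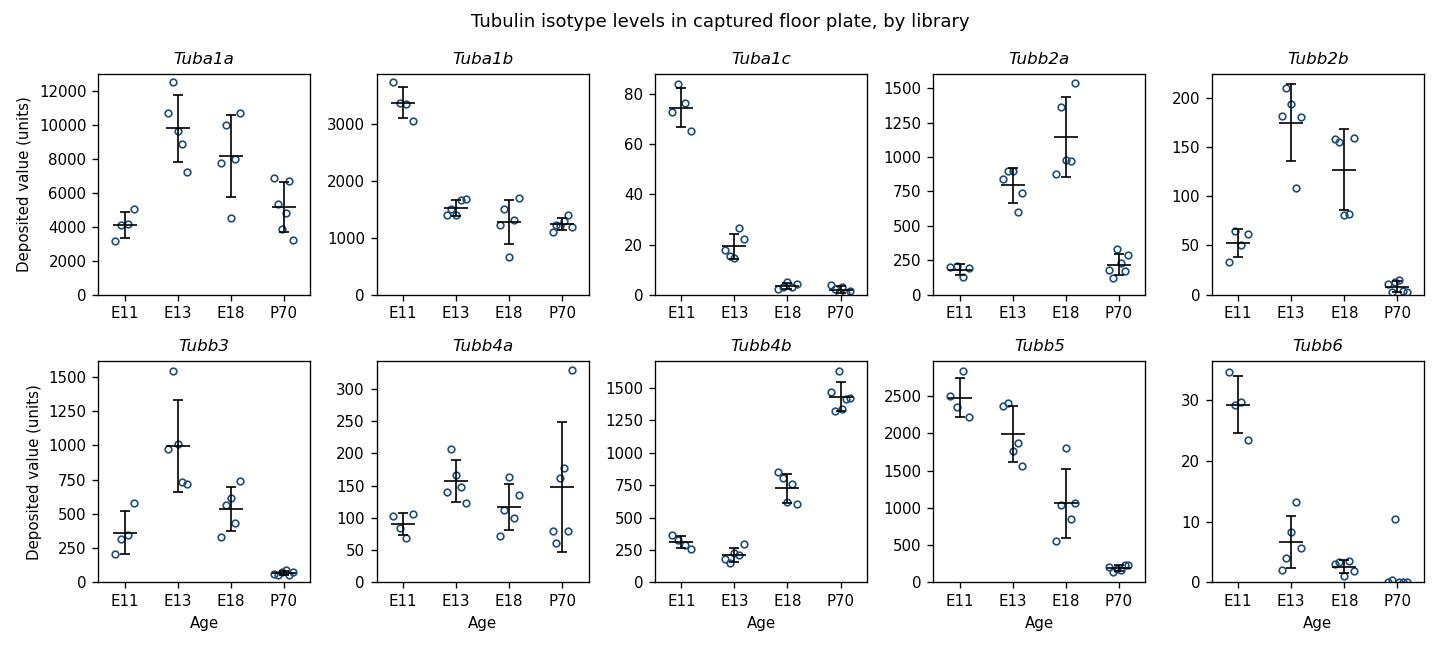
Level of each isotype in the captured libraries, in deposited units, against age, with an axis of its own for each gene starting at 0. Circles are libraries and the bars mark mean ± SD, left out where a library is listed at 0. Tubb4b stands between 1326 and 1633 units at P70 and at most 852 units at earlier ages, while Tubb3 has its highest library, 1541 units, at E13.

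Counts over the 10 genes are given beside those over all genes. For E13 against E11, 8 of 10 passed, 4 higher and 4 lower, where 20.9% of 11567 genes tested passed (9.44% higher and 11.5% lower). In 8 of 10 the groups did not overlap, against 28.4% of all genes. The median log2 change of the 10 genes was 0.23 and that of all genes -0.04. For E18 against E13, 4 of 10 passed, 1 higher and 3 lower, against 47.4% of 11797 genes, so the share called was near the background. In 2 of 10 the groups did not overlap, against 37.8%. The median log2 change was -0.48, and -0.04 for all genes.

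Between P70 and E18, 6 of 10 passed, 1 higher and 5 lower, against 40.8% of 12353 genes, 16.9% of them higher and 24.0% lower. In 5 of 10 the groups did not overlap, against 20.9% of all genes. The median log2 change of the 10 genes was -0.89 and that of all genes -0.14. Rescaling each library to a common median ratio moved the median of all genes to 0.01, and calls over all genes, 2082 higher and 2960 lower as deposited, became 2612 higher and 2174 lower. On that scale Tubb4b was 1.16 higher, Tubb2b -3.87, Tubb3 -2.77, Tubb2a -2.25 and Tubb5 -2.19, all still called, and Tuba1a was no longer called (-0.49, adjusted p = 0.0760). Neighbouring comparisons share the E13 or the E18 libraries, so their values are not independent.

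**Figure D3:**
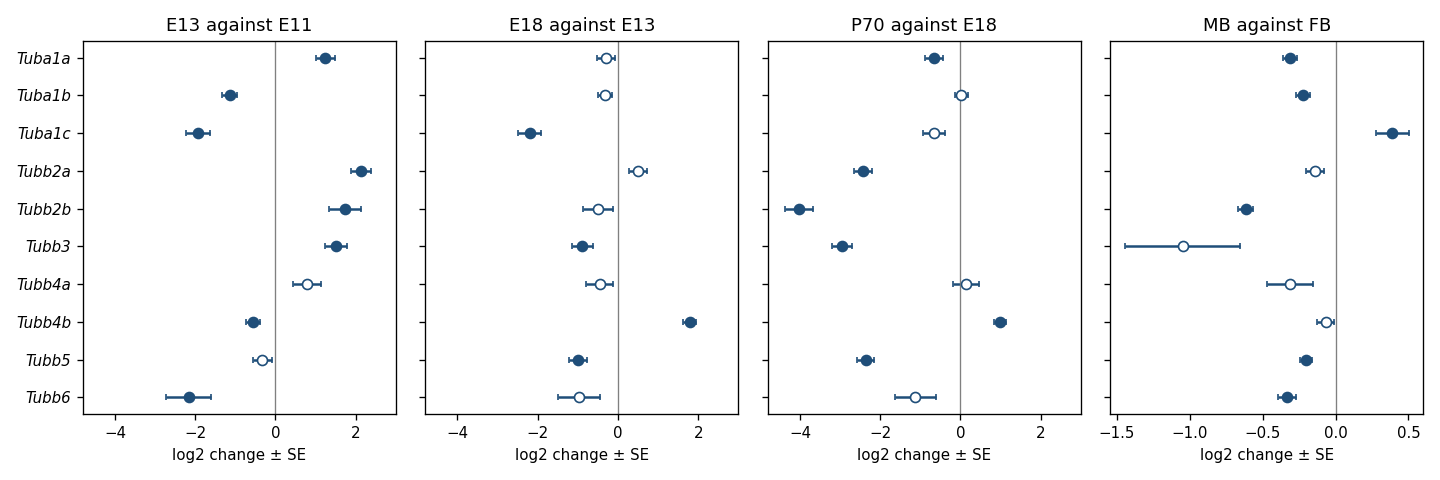
Log2 change of each isotype in the 4 comparisons, the later age against the earlier in captured libraries and MB against FB in spheres. Points are fitted changes, bars are SE, filled points have an adjusted p below 0.05, and the sphere panel has a narrower axis. Tubb4b is at 1.79 for E18 against E13 and 0.99 for P70 against E18, and Tubb2b is at -4.02 for P70 against E18.

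MB and FB spheres were compared on raw counts with the quasi-likelihood test of edgeR, and levels are given as CPM, the counts relative to the TMM-scaled library size as edgeR computes them. Of the 10 genes 6 passed, 1 higher and 5 lower in MB, where 29.6% of 12886 genes passed (15.3% higher and 14.3% lower). In 5 of 10 the groups did not overlap, against 21.2% of all genes. The median log2 change was -0.27 and that of all genes -0.02.

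Tubb2b showed the widest difference that passed. It was at 410.1, 378, 357, 405 and 380.4 CPM in MB spheres and at 618, 594, 601, 589 and 560.3 CPM in FB spheres (log2 change -0.62, SE 0.05, adjusted p = 2.45e-08). Tuba1a was at 3168, 3034, 2871, 2975 and 3109 CPM in MB and at 4066, 4051, 3611, 3603 and 3462 CPM in FB (-0.31, SE 0.05, adjusted p = 4.05e-05). Neither gene overlapped between the groups. Tubb6, hardly listed in the adult captures, was at 279.6 to 326 CPM in MB and 348 to 425 CPM in FB (-0.33, SE 0.06, adjusted p = 0.000355). Tubb5 was at 1239 to 1331 CPM in MB and 1458 to 1560.3 CPM in FB (-0.20, SE 0.04, adjusted p = 0.000706). Tuba1b was at 1020.4 to 1155 CPM in MB and 1222 to 1398 CPM in FB (-0.23, SE 0.05, adjusted p = 0.00111).

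Tuba1c alone was higher in MB, at 104, 101, 104, 130.4 and 89.7 CPM against 85.2, 77.9, 98.3, 79.6 and 62.7 CPM in FB (log2 change 0.39, SE 0.11, adjusted p = 0.0136). The groups overlapped, and the call was lost without MB replicate 4 (0.31, adjusted p = 0.0502, range over 14 alternatives 0.00107 to 0.0502). Tubb3 was low, with 11, 23, 36, 24 and 13 counts in MB and 57, 25, 56, 52 and 48 counts in FB. Its log2 change of -1.05 (SE 0.40, adjusted p = 0.0537) missed the threshold, and passed without MB replicate 3 (-1.23, adjusted p = 0.0414), without FB replicate 2 (-1.20, adjusted p = 0.0320) and with DESeq2 (adjusted p = 0.0302), out of 14 alternatives between 0.0302 and 0.143. Tubb2a (736 CPM in MB, 812 in FB, adjusted p = 0.0822, or 0.0468 without FB replicate 5, range over 14 alternatives 0.0468 to 0.241), Tubb4a (43.8 and 54.3 CPM, adjusted p = 0.144) and Tubb4b (395 and 414 CPM, adjusted p = 0.430) did not pass.

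Per exonic length, Tubb2a supplied 33.8% of the β total in MB and 31.6% in FB, and Tubb5 28.9% and 28.2%. The share of Tubb2b was 12.5% in MB and 16.2% in FB, and that of Tuba1c 2.0% and 1.26% of the α total. The shares of Tubb2a, Tubb2b and Tuba1c did not overlap between the groups (exact p = 0.00794, the smallest the design allows, adjusted p = 0.0157). Tubb4b held 14% in MB and 12.4% in FB (exact p = 0.0159, adjusted p = 0.0265). No other share passed, and those of Tubb3 were 0.116% in MB and 0.203% in FB. On leaving out 1 library a further share passed in some cases, Tuba1a without MB replicate 1 or FB replicate 5 (-1.87 and -1.93 points), Tuba1b without FB replicate 5 (1.24), Tubb3 without MB replicate 3 or FB replicate 2 (-0.103 and -0.111) and Tubb6 without MB replicate 5 or FB replicate 4 (-0.718 and -0.763), with adjusted p between 0.0254 and 0.0470. With no length correction Tubb5 (1.20 points, adjusted p = 0.0353) and Tuba1a (-1.76, adjusted p = 0.0254) passed, and Tuba1a also with all listed tubulin genes in the total (-1.79, adjusted p = 0.0254). Cell cycle markers, 20 of 20 listed in both groups, summed to 3299.9 to 3487 CPM in MB and 4172 to 4528 CPM in FB, and motile cilia markers, 7 of 18 listed, to 258 to 281 CPM in MB and 204 to 243 CPM in FB. Radial glia markers, 10 of 10 listed, summed to 5766 to 6354 CPM in MB and 8968 to 9408 CPM in FB, and astrocyte markers, 11 of 12 listed, to 8593 to 9052 CPM in MB and 4212 to 4618 CPM in FB. Their part in the isotype differences was not tested.

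**Figure D4:**
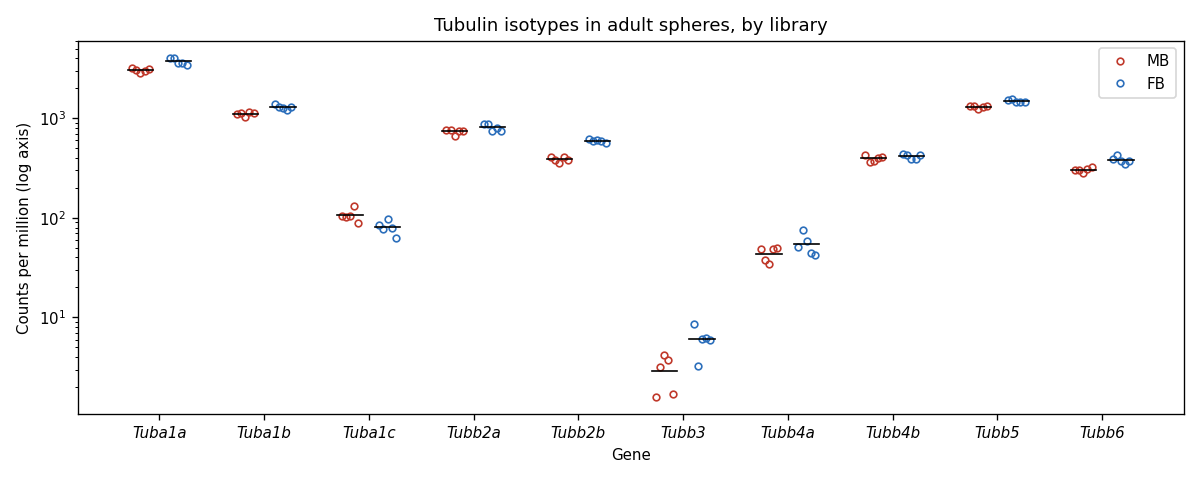
Level of each isotype in MB spheres (left of each pair) and FB spheres (right), in CPM on a log axis. Circles are libraries, 5 a group, and the bars mark the group means. Tubb2b lies at 357 to 410.1 CPM in MB and 560.3 to 618 CPM in FB, and Tubb3 lies at or below 8.58 CPM in every library.

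Counts for the lists that follow are to be read against all genes tested, of which 9.44% were higher and 11.5% lower for E13 against E11, 22.4% and 25.0% for E18 against E13, 16.9% and 24.0% for P70 against E18, and 15.3% and 14.3% for MB against FB. Of 10 further tubulin genes (α, β, γ, δ and ε) 5, 5 and 4 were tested at the 3 intervals in turn, of which 1, 2 and 1 rose and 1, 1 and 0 fell. At the last interval 1 gene was lower at an unadjusted p below 0.05, and edgeR on recovered reads called 0 of 3 lower. In spheres 1 of 6 was higher in MB and 1 lower. Tuba4a, an α-tubulin of mature tissues, averaged 2.85 ± 1.81, 2.51 ± 1.30, 7.39 ± 3.45 and 40.2 ± 20.8 units at E11, E13, E18 and P70. It is outside the α total, though its mean was above that of Tuba1c at E18 (3.43 units) and P70 (1.99 units). It rose for E18 against E13 (log2 change 1.27, SE 0.39, adjusted p = 0.0108) and for P70 against E18 (2.22, SE 0.38, adjusted p = 8.15e-05). In spheres Tuba4a averaged 26.5 ± 2.07 CPM in MB and 7.87 ± 1.52 CPM in FB (1.75, SE 0.19, adjusted p = 6.09e-07). Tubg1, the γ-tubulin that nucleates microtubules, averaged 43.6 units at E18 and 84.6 at E13 (-0.97, adjusted p = 0.000592), while its homologue Tubg2 averaged 18 units at E18 and 8.0 at E13 (1.13, adjusted p = 0.0242). Tuba8 was listed at P70 alone of the 4 ages, with 0 to 6.39 units.

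The chaperones that fold tubulin showed their changes after E13. The list holds 22 genes, the CCT chaperonin subunits, prefoldins and tubulin cofactors. For E13 against E11 limma called 0 of 22, with a median log2 change of 0.01, while 3 were higher and 1 lower at an unadjusted p below 0.05, and edgeR on recovered reads called 2 of 20, both higher. Between E18 and E13, 17 fell and 1 rose, with a median of -0.69. Cct5 averaged 211 units at E18 and 535 at E13 (-1.35, adjusted p = 1.96e-08) and Cct4 105 and 278 units (-1.40, adjusted p = 1.03e-07). The gene that rose was Tbcel, known to act on tubulin as a destabilising factor, with 45.8 units at E18 and 5.60 at E13 (2.80, adjusted p = 8.51e-09). For P70 against E18, 9 fell and 2 rose, among them Pfdn2 with 363 units at P70 and 168 at E18 (1.10, adjusted p = 1.53e-05), while edgeR on recovered reads called 3 of 20 lower and 2 higher. In MB spheres 12 of 22 passed and were all lower than in FB spheres, with a median of -0.27, as for Cct6a with 474 CPM in MB and 607 in FB (-0.36, adjusted p = 1.32e-05).

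Calls among genes of polyglutamylation and polyglycylation, modifications that are dense on axonemes, were mostly higher at both intervals after E13. The list holds enzymes that add the chains and others that remove them, so its counts do not give the amount of modification. For E13 against E11, 1 of 13 tested members rose and 1 fell. For E18 against E13, 9 of 14 passed, all higher at E18, with a median log2 change of 0.92, and a further 6 had values at E18 but none at E13. The glycylase Ttll3 averaged 41.6 ± 13.2 units at E18 and 1.27 ± 0.418 at E13 (4.20, adjusted p = 1.89e-10), and the ligase Ttll9 18.3 and 2.98 units (2.31, adjusted p = 2.84e-08). Agbl5, an enzyme that removes glutamate, averaged 21.4 units at E18 and 5.83 at E13 (1.63, adjusted p = 4.68e-05). Between P70 and E18, 9 of 20 rose and 3 fell, with a median of 0.52. Ttll10 averaged 23.1 units at P70 and 1.75 at E18 (3.21, adjusted p = 2.53e-06), and Ttll6 43.9 and 14.2 units (1.64, adjusted p = 0.000471). In spheres, where the share called was near or below that of all genes, 2 of 14 were higher in MB, both of the removing kind. They were Agbl5 (9.64 CPM in MB, 4.28 in FB, 1.17, adjusted p = 0.0123) and Agbl2 (12.4 and 7.09 CPM, 0.80, adjusted p = 0.0424). Ttll4 alone was lower (18.6 CPM in MB, 38.6 in FB, -1.05, adjusted p = 0.000654).

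The axonemal list, tektins and proteins that line ciliary doublet microtubules, moved in the same direction as Tubb4b at the later intervals. For E13 against E11, 3 of 11 passed, all higher at E13, with a median of 0.48, and Spag8 averaged 25.5 units at E13 and 12.5 at E11 (1.03, adjusted p = 0.00740). Between E18 and E13, 14 of 16 passed, all higher at E18, with a median of 3.21. Tekt4 averaged 107 ± 31.2 units at E18 and 2.46 ± 1.25 at E13 (4.97, adjusted p = 7.53e-13). Cfap52, listed under its older symbol Wdr16, averaged 150.3 units at E18 and 1.3 at E13 (6.04, adjusted p = 4.56e-14). For P70 against E18, 15 of 20 passed, all higher at P70, with a median of 0.99, among them Tekt3 with 28.8 units at P70 and 2.45 at E18 (3.32, adjusted p = 1.65e-06). In spheres edgeR called 0 of 11, with 0 at an unadjusted p below 0.05, and DESeq2 called 0 as well.

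Neuronal microtubule-associated proteins, which bind or regulate microtubules in axons and dendrites, followed another course. For E13 against E11, 10 of 17 passed, all higher at E13, with a median of 1.01, among them Mapt, the gene of tau, with 46.7 ± 36.2 units at E13 and 4.30 ± 2.91 at E11 (3.01, adjusted p = 0.000134). Stmn2, a regulator of growth cone microtubules, averaged 460.0 ± 316 units at E13 and 100.2 ± 59.7 at E11 (2.13, adjusted p = 0.00162). For E18 against E13, 8 of 17 rose and 1, Stmn1, fell (217 units at E18, 609.6 at E13, -1.51, adjusted p = 1.09e-05). Tppp3, on this list but known from cilia as well, averaged 906 units at E18 and 287 at E13 (1.69, adjusted p = 9.66e-06). Between P70 and E18, 14 of 18 fell and 3 rose, with a median of -1.40, and Dpysl3 averaged 2.13 units at P70 and 99.6 at E18 (-5.01, adjusted p = 4.10e-11). In spheres 2 of 18 were higher and 6 lower in MB, and Crmp1 averaged 36.3 CPM in MB and 138 in FB (-1.92, adjusted p = 4.44e-11).

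The γ-tubulin ring complex and its augmin partners, which seed spindle microtubules, had 8 of 16 members lower for E13 against E11 (11.5% of all genes) and 7 of 15 lower for E18 against E13 (25.0% of all genes). For P70 against E18 3 of 15 were lower, a share near the 24.0% of all genes, and edgeR on recovered reads called 0 of 10. Every call at these intervals was in that direction. The augmin subunit Haus5 averaged 5.79 units at E13 and 24.8 at E11 (-1.95, adjusted p = 0.000116), and Haus3 averaged 4.30 units at E18 and 11.8 at E13 (-1.25, adjusted p = 0.000245). In spheres 2 of 16 were higher and 2 lower in MB. Of 7 tested genes of tubulin acetylation and detyrosination 3 rose for E13 against E11, among them Atat1, the tubulin acetyltransferase (190.2 units at E13, 72.2 at E11, 1.41, adjusted p = 0.000132). With edgeR on recovered reads 3 of these genes were tested and 2 were lower. Between E18 and E13, 2 rose and 2 fell. The deacetylase Sirt2 averaged 243 units at E18 and 76.7 at E13 (1.63, adjusted p = 4.24e-09). For P70 against E18, 5 fell and 1 rose, and Hdac6, another tubulin deacetylase, averaged 4.04 units at P70 and 16 at E18 (-1.85, adjusted p = 8.72e-06). In spheres 1 was higher in MB and 1 lower.

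**Figure D5:**
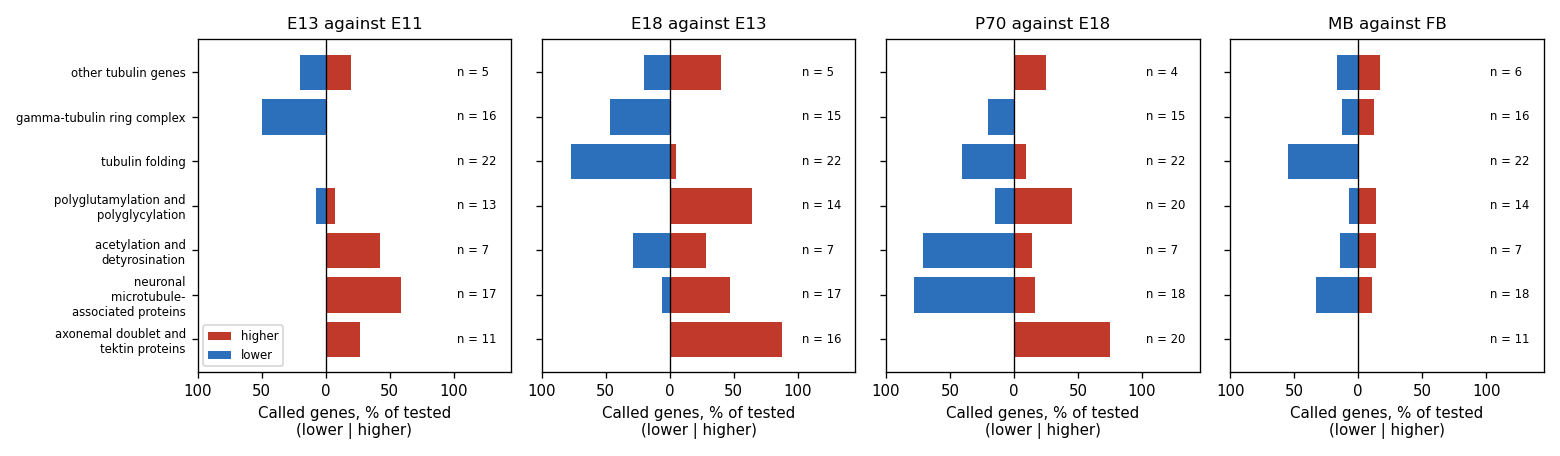
Share of tested genes of each list that was called, lower in blue to the left and higher in red to the right, in the 4 comparisons, with the number tested beside each bar. Of the axonemal list 14 of 16 genes are higher for E18 against E13, and of the tubulin folding list 17 of 22 are lower.

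For each isotype the 3 genes nearest in course over the 20 captured libraries are given, whatever their distance. Likeness was the root mean square difference of log2(value + 1) after centring each gene, searched over 8986 genes, and it is a description without a test. Nearest to Tubb4b were Oscp1 (0.26), Retsat (0.27) and Elof1 (0.27). Oscp1 averaged 19.8, 18.1, 55.0 and 130.0 units at E11, E13, E18 and P70. Nearest to Tubb3 were Gng2 (0.37), Crmp1 (0.47) and Elavl2 (0.52), and Gng2 was also nearest to Tubb2b (0.72), followed by Ackr1 (0.72) and Dpysl5 (0.74). At such distances courses can differ. Dpysl5 averaged 42.3, 46.4, 51.9 and 4.05 units at E11, E13, E18 and P70, and Tubb2b 52.3, 175, 127 and 7.99. Nearest to Tuba1a were Eif4a2 (0.31), Map2 (0.33) and Srr (0.34), and to Tubb2a Ddah1 (0.48), Olfm1 (0.50) and Cnrip1 (0.51).

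Nearest to Tuba1b were Topbp1 (0.23), Psme3 (0.24) and Paics (0.31), and Topbp1 averaged 20.2, 7.13, 5.54 and 5.76 units at the 4 ages. Tuba1c was nearest to Fn1 (0.44), Kif22 (0.55) and Ncapd2 (0.56). Fn1 encodes fibronectin of the extracellular matrix, and Kif22 and Ncapd2 are known from mitotic chromosomes. Tubb5 was nearest to Tmeff1 (0.33), Ptbp2 (0.36) and Nkain1 (0.43), and Tubb6 to Mtap (0.63), Rfc5 (0.71) and Dut (0.72). Tubb4a was nearest to Spsb3 (0.33), Rab4b (0.35) and Atp6v1e1 (0.37).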

How the data were processed

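For the 20 captured libraries the authors deposited normalized values with no unit named, and for the 10 sphere libraries they deposited raw counts, per the file headers. Per the labels' protocols RNA went through Smart-seq2 and Tn5 libraries, with no molecular identifiers and no strand, so counting error covers reads only. Per the submitters' processing notes the tools were STAR 2.3, Salmon 1.6.0 and DESeq2 1.34.0, and 2 genome builds are listed (GRCm39 and mm10), all without a role. The read counting step was not given in the sources used here. Sphere counts may be rounded estimates. All columns were matched by name, with 0 left out. Of 15139 captured lines 142 with repeated symbols were dropped. Genes whose mean at an age is under 1 unit carry no values for that age.

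Captured values were tested with limma 3.58.1 (R 4.3.3) after a log2(value + 1) transform, trend included, 4 ages in 1 fit, as designed for values that are not counts. This scale understates changes of low genes. Sphere counts were tested with edgeR 4.0.16 quasi-likelihood after TMM scaling and filterByExpr, with DESeq2 1.42.0 as an alternative. Adjustment was by Benjamini-Hochberg across every gene tested, at 0.05. Reads were recovered from captured values where they fell within 0.01 of whole numbers in every library (10507 genes), and solutions implying a length above 15000 bases were dropped. Shares used units, or sphere counts per exonic length. The tests were tested on simulated data.

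The members and lists were chosen with earlier results of these data known. All 10 isotypes were named in every comparison, and of each list up to 3 called genes with the smallest p. Some of these are not printed. Older symbols were matched through the RefSeq table. The alternatives were other pseudocounts, filters, weights, scalings and tools, a replicate block, other totals for shares and leaving out each library. Amino acid sequences were not used here.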

Additional observations from a re-analysis of the deposited data

Results flagged for a closer look

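Of 120 groups of levels and shares tested for a library far from the rest, 9 held one, and chance alone gives about 1 in 20. Tubb2a in E11 replicate 3 stood at 126 units, with the other 3 libraries at 194 to 205, and its share there was 3.37% of the β total against 5.66% to 6.05%. Tubb2b in E13 replicate 4 stood at 108 units, with the others at 181 to 209.7. Tubb6 in P70 replicate 3 stood at 10.5 units, with the others at 0 to 0.311, and its share was 0.436% against 0 to 0.0183%. Tuba1c in E18 replicate 3 made up 0.0936% of the α total, against 0.0227% to 0.0341% in the other libraries. Tubb3 in P70 replicate 4 made up 4.38% of the β total, against 2.75% to 3.24%. In MB spheres Tubb2a stood at 658 CPM in replicate 3 against 747 to 765, and Tubb4b made up 13% of the β total in replicate 2 against 14.1% to 14.4%.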

How the results depend on the processing

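All 119 alternative counts of called isotypes or shares lay within 1.5 times the reported count. Among single isotypes 637 of 676 alternative changes and 468 of 510 alternative share differences kept both direction and side of the threshold. With array weights per library the log2 change for P70 against E18 was -0.25 for Tubb4a and -0.16 for Tuba1b, against 0.15 and 0.02 as reported. With the replicate block Tubb4a was -0.14 in that comparison, and the counts of called isotypes stayed at 8, 4, 6 and 6. Whether replicate numbers pair the samples is unknown. Correlations of same-numbered libraries lay between -0.17 and 0.28, which cannot decide it, since paired samples need not correlate. Leaving out 1 library gave ranges that crossed 0 for the log2 change of P70 against E18 in Tubb4a (-0.14 to 0.35) and Tuba1b (-0.20 to 0.14). The same held for share differences in percentage points of E18 against E13 in Tuba1a (-0.664 to 1.40) and Tuba1b (-1.25 to 0.782), of P70 against E18 in Tubb6 (-0.0701 to 0.0171) and Tuba1c (-0.0152 to 0.00247), and of MB against FB in Tubb4a (-0.140 to 0.0434). The Tubb6 difference of -0.0701 came without P70 replicate 3 and passed (adjusted p = 0.0151, range over 14 alternatives 0.0151 to 1.00). With recovered reads per exonic length the Tubb2b share difference for E18 against E13 was 0.0808 points, against -0.518 as reported. None of these results passed as reported, and the cause was not tested. At P70 the lowest recovered depth was 1348052 reads, which limits Tubb6 and Tuba1c.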
